A study of Homo sapiens with 6 samples.

Results

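The genes described here are 57 genes of DNA repair and the DNA damage response, taken from a list of symbols that was grouped by repair pathway. A probe set carrying the symbol was present for 30 of the 57, out of 14883 genes with a named probe set in all, and for CHEK2, which had 2, the brighter by its mean over the 6 arrays was used. The cells were SK-N-BE(2), a human neuroblastoma cell line with amplification of MYCN. Infection with pLKO lentivirus was shared by both groups, which differed in the insert. The 3 samples of the control group received a non-silencing sequence (NSC), the 3 of the other group a short hairpin directed at BRG1 (shBRG1), and RNA was taken 48 h later. BRG1, the product of SMARCA4, powers SWI/SNF remodelling of nucleosomes by hydrolysing ATP. All arrays come from 1 cell line, and a single shBRG1 construct is named.

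The remaining 27 listed genes had no probe set under their symbols among those used and were not analysed here. They were ATM, BRCA1, BRCA2, BLM, WRN, LIG3, LIG4, PRKDC, POLB, all 10 listed Fanconi anaemia genes and all 8 listed genes of nucleotide excision repair. SMARCA4 was not analysed here either, so the depletion of the target was not checked and the arrays are described by their labels. Values are log2 expression per probe set, and the medians of the 6 arrays lay between 3.77 and 3.84. The labels call the infections triplicates without saying whether the cultures were separate, so the p-values reflect how far these arrays scatter, which may be technical in origin. The adrenergic neuroblastoma markers were well above the array medians in NSC, among them PHOX2A (8.88), HAND2 (9.24), DBH (10.96) and CHGA (10.82). The Schwann and glial markers ERBB3 (4.02), S100B (4.39), GFAP (4.40) and SOX10 (5.24) were lower, with SOX10 the furthest above the medians. Of the mesenchymal markers, SNAI2 (9.80), VIM (8.54) and THY1 (7.79) were also well above the medians in NSC. TWIST1 (5.92), FN1 (5.07) and CD44 (4.87) were above them by less, and PRRX1 (3.56) and YAP1 (3.29) were below.

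DNA damage is met by several pathways that divide the work by lesion. Double-strand breaks are sensed by the MRN complex (MRE11, RAD50 and NBN), which recruits the kinase ATM, and are then mended either by homologous recombination, which copies the sister chromatid, or by end joining, which religates the ends. 53BP1 and RIF1 favour end joining by protecting the ends from resection, while BRCA1, PALB2 and BRCA2 favour recombination. Mismatch repair removes replication errors, and base excision repair removes oxidised, deaminated or alkylated bases. Neuroblastoma with amplified MYCN is known for replication stress and for a reliance on ATR and CHK1 signalling.

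Repair genes moved in both directions, with folds from 1.19 (BRIP1) to 1.62 (PMS2) among those that passed, and the direction differed between members of single complexes and pathways. With limma and an adjusted p of 0.05 over all genes, 10 of the 30 measured genes rose, 4 fell and 16 did not pass. PMS2 (0.70 on the log2 scale), CHEK2 (0.64), RAD52 (0.39) and PALB2 (0.38) led the rises, and RAD54L (-0.66), NBN (-0.63), OGG1 (-0.44) and RIF1 (-0.43) were the genes that fell. The share that passed, 46.7%, stood beside 17% of all genes tested. The genes were listed with earlier results of these data known, which limits what such shares can show. The share that rose was set against 9.78% of all genes and the share that fell against 7.19%. Bright genes passed more often, and 28 of the 30 repair genes were at or above the level of the median gene. Of these 28, 46.4% passed, beside 29.2% of the 7442 genes at or above that level. By direction, 10 of the 28 rose (35.7%, beside 17.4% of genes at that level) and 3 fell (10.7%, beside 11.9%), so the share that fell was near the background. The median difference was 0.14 over the 30 genes, 0.01 over all genes and 0.06 over the genes at or above the median level. In a culture, a difference in RNA per cell and a difference in the make-up of the cell population cannot be told apart.

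The 3 shBRG1 values lay entirely outside the range of the 3 NSC values for 20 of the 30 genes (66.7%), 15 above and 5 below, beside 35.5% of all genes and 54.6% of genes at or above the median level. The standard deviation between arrays of a group, pooled over both groups, had a median of 0.07 over the 30 genes, and was highest for CHEK2 (0.23), RAD54L (0.18) and RECQL4 (0.16). It was lowest for XRCC5 and PARP1, at 0.02 each. The shBRG1 array of replicate 2 was the highest of its group for 19 of the 30 genes, beside 42.5% of all genes, and the part of this array in the rises was not tested. Without it 3 genes rose and 4 fell. Leaving out shBRG1 replicate 1 or 3 left 5 or 4 that rose, and leaving out NSC replicate 1, 2 or 3 left 4, 4 or 5. Calls over all genes dropped too, from 17% with every array to between 10.8% and 12.4% with 1 array left out. Without shBRG1 replicate 2 the share of all genes was 11.2%. All of the genes called in these 6 fits were among the 14 called with every array. The fits reuse the same arrays, so this is no separate support for the calls.

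**Figure D1:**
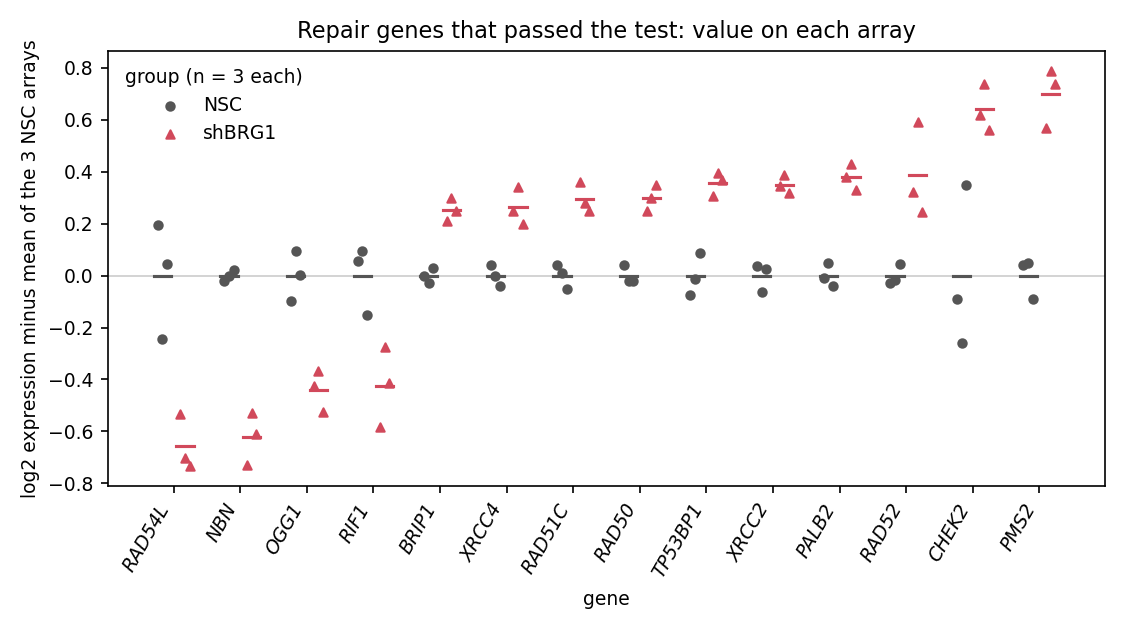
Log2 expression of the 14 repair genes that passed the test, on each of the 3 NSC (circles) and 3 shBRG1 (triangles) arrays, as the difference from the mean of the NSC arrays. Short bars are group means. The groups do not overlap for any of the 14 genes, which were picked by a test on these same values. Of all genes at or above the median level, 54.6% had shBRG1 values outside the NSC range. The gap between the groups is widest for PMS2 and NBN, at 0.52 each.

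The MRN complex holds broken ends and activates ATM. Its subunits went in opposite directions. NBN, the subunit that carries the ATM-binding region, read 7.58, 7.60 and 7.62 on the NSC arrays and 6.87, 7.07 and 6.99 on the shBRG1 arrays. All 3 shBRG1 values lay at least 0.52 below the lowest NSC value. NBN was 1.54-fold lower (log2 difference -0.63, SE 0.07, limma adjusted p = 0.0020), from 7.60 ± 0.02 to 6.98 ± 0.10 (SD, n = 3), and passed in every refit listed in the plot of calls by setting. RAD50, the SMC-like ATPase of the complex, read 9.32, 9.26 and 9.26 in NSC and 9.53, 9.58 and 9.63 in shBRG1. It rose 1.23-fold (0.30, SE 0.07, adjusted p = 0.021), with no overlap between the groups. MRE11, the nuclease, had a difference of 0.16 (95% interval 0.02 to 0.31, adjusted p = 0.13) and its groups did not overlap either. RAD50 missed the threshold when replicate 2 or 3 of either group was omitted (over the refits its adjusted p ran from 2.8e-04 to 0.076), and MRE11 passed with dim genes left out and with trend and robust options.

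53BP1 and RIF1 act in turn at break ends, 53BP1 recruiting RIF1, and their transcripts also parted. TP53BP1 read 7.76, 7.82 and 7.92 in NSC against 8.14, 8.23 and 8.20 in shBRG1, a rise of 0.35 (SE 0.07, 1.28-fold, adjusted p = 0.016). RIF1 read 8.33, 8.37 and 8.12 in NSC against 7.69, 8.00 and 7.86 in shBRG1, a fall to 1.34-fold lower (-0.43, SE 0.11, adjusted p = 0.032). The lowest NSC value of RIF1 and its highest shBRG1 value were 0.12 apart, so its groups were separate but close. On omission of NSC replicate 1, or of replicate 2 or 3 of shBRG1, TP53BP1 missed the threshold (over the refits its adjusted p ran from 9.5e-04 to 0.060). RIF1 missed it on omission of replicate 1 of either group, of replicate 2 of NSC or of replicate 3 of shBRG1 (0.0032 to 0.098).

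Among the kinases that signal damage, CHEK2, which encodes the ATM effector CHK2, read 5.18, 5.01 and 5.62 in NSC and 5.89, 6.01 and 5.83 in shBRG1. It was 1.56-fold higher (0.64, SE 0.15, adjusted p = 0.026), and the NSC arrays were more spread (SD 0.31) than the shBRG1 arrays (SD 0.09). The other probe set named CHEK2 was dim, at 3.24 in NSC and 3.41 in shBRG1, with a difference of 0.17 (SE 0.09). The mean of both gave the lower end of the range of differences over the refits, 0.40 to 0.81. CHEK2 missed the threshold on omission of any 1 array other than NSC replicate 3 (over the refits its adjusted p ran from 0.0058 to 0.086). The replication stress kinases were not past the threshold. ATR had a difference of 0.18 (95% interval -0.02 to 0.38, adjusted p = 0.21), and its effector CHEK1 one of 0.06 (-0.10 to 0.21, adjusted p = 0.64), with overlapping groups for each.

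Homologous recombination held 6 of the 14 genes that passed, from 9 measured of 11 listed. Of the 9, the test called 5 higher and 1 lower and left 3 uncalled, with a median difference of 0.25. The share called was 66.7%, beside 17% of all genes and 29.2% of genes at or above the median level. PALB2, which bridges BRCA1 and BRCA2, read 7.19, 7.25 and 7.16 in NSC and 7.58, 7.63 and 7.53 in shBRG1, a 1.30-fold rise (0.38, SE 0.07, adjusted p = 0.0084). XRCC2, a recombination factor, read 8.12, 8.02 and 8.11 against 8.43, 8.47 and 8.40, a 1.27-fold rise (0.35, SE 0.07, adjusted p = 0.011). For each of these the groups were 0.28 apart.

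RAD51C, another recombination factor, read 8.06, 8.03 and 7.97 in NSC and 8.38, 8.30 and 8.27 in shBRG1 (0.30, SE 0.07, adjusted p = 0.023). BRIP1, the helicase bound by BRCA1 that is also named FANCJ, read 8.20, 8.17 and 8.23 against 8.41, 8.50 and 8.45 (0.25, SE 0.07, adjusted p = 0.036). RAD52, an annealing protein, read 5.94, 5.95 and 6.01 against 6.29, 6.56 and 6.21 (0.39, SE 0.10, adjusted p = 0.034), with most of its spread among the shBRG1 arrays. The differences of these 3 genes stayed positive over the refits (0.23 to 0.32 for RAD51C, 0.19 to 0.27 for BRIP1 and 0.29 to 0.46 for RAD52), but their calls were often lost. RAD51C and BRIP1 did not pass after cyclic loess or with any 1 of the 6 arrays omitted (over the refits, adjusted p from 0.0017 to 0.082 for RAD51C and from 0.0030 to 0.12 for BRIP1), and RAD52 passed with 1 array fewer only when shBRG1 replicate 3 was left out (0.010 to 0.10).

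RAD54L went the other way. This motor protein of strand exchange read 6.24, 5.80 and 6.09 in NSC and 5.51, 5.34 and 5.31 in shBRG1. The NSC arrays differed among themselves (SD 0.23), yet the highest shBRG1 value was 0.29 below the lowest NSC value. RAD54L was 1.58-fold lower (-0.66, SE 0.12, adjusted p = 0.010). BARD1, the RING partner of BRCA1, had a difference of -0.24 (95% interval -0.49 to 0.003, adjusted p = 0.17), and XRCC3, also a recombination factor, one of 0.12 (-0.12 to 0.36). RAD51B was at 3.20 in NSC and 3.37 in shBRG1, below the array medians, with a difference of 0.16 that did not pass. RECQL4, the measured RecQ helicase, had a difference of -0.29 (-0.56 to -0.02, adjusted p = 0.14), with groups 0.05 apart.

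**Figure D2:**
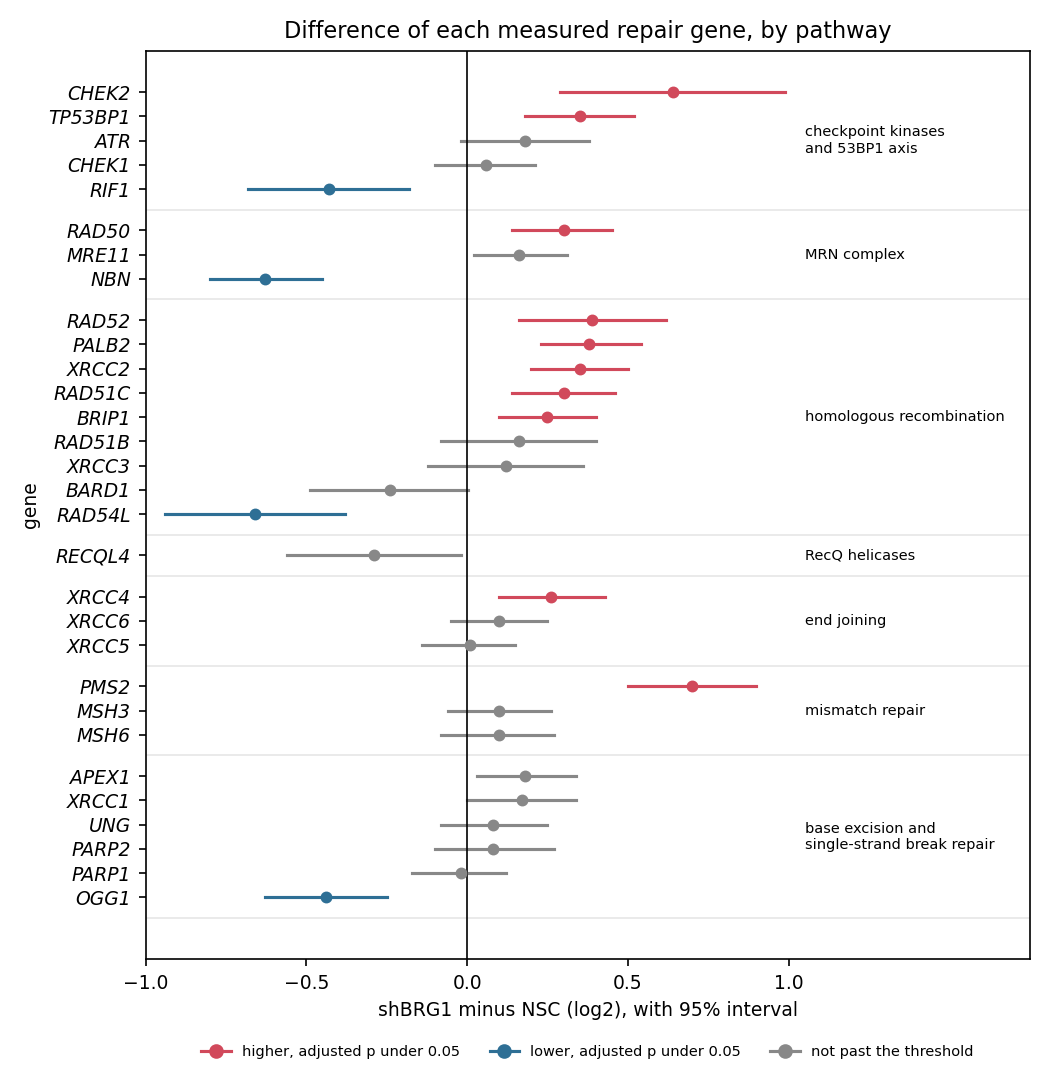
Difference between shBRG1 and NSC on the log2 scale for each of the 30 measured repair genes, with its 95% interval from limma (n = 3 arrays per group), ordered by pathway. Rises and falls stand side by side within the MRN complex (RAD50 0.30, NBN -0.63), the 53BP1 axis (TP53BP1 0.35, RIF1 -0.43) and homologous recombination (PALB2 0.38, RAD54L -0.66).

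The promoter windows of 5 recombination genes are shown because 4 of them are among the 5 of that pathway that rose, while RAD54L fell. RAD52, the other that rose, has a window with no match to the motifs searched, and it is not printed. Each is the RefSeq window of 300 bases on GRCh38.p14, from 250 bases before to 50 bases after the annotated start, read 5′ to 3′ on the gene's strand. They lie at chr16:23641261-23641560 (PALB2, minus strand), chr17:61863479-61863778 (BRIP1, minus), chr17:58692323-58692622 (RAD51C, plus), chr7:152676092-152676391 (XRCC2, minus) and chr1:46247438-46247737 (RAD54L, plus). Capitals mark matches on either strand to 5 motifs, namely an E2F-type core (TTNGCGC), the cell cycle element CHR (TTTGAA), the CCAAT box (CCAAT), an ETS-type core (CCGGAAG) and the GC box (GGGCGG), and adjoining or overlapping matches run together.
PALB2: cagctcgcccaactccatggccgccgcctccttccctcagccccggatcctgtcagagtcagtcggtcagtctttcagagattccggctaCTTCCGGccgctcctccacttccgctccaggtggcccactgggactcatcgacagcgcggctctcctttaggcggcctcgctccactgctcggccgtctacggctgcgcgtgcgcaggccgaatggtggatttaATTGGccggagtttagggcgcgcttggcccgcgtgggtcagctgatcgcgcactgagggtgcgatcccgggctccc
BRIP1: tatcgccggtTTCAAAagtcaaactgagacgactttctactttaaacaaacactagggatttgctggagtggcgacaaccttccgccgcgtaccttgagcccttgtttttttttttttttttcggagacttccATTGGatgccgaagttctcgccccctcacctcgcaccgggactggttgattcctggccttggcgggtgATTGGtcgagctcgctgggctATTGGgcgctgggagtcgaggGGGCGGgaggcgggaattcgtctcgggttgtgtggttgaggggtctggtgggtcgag
RAD51C: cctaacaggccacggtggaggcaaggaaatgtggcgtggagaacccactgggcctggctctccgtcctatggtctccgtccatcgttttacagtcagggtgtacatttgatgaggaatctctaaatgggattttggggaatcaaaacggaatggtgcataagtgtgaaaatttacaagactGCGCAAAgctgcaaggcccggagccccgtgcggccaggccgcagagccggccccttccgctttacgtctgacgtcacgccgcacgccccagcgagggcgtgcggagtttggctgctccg
XRCC2: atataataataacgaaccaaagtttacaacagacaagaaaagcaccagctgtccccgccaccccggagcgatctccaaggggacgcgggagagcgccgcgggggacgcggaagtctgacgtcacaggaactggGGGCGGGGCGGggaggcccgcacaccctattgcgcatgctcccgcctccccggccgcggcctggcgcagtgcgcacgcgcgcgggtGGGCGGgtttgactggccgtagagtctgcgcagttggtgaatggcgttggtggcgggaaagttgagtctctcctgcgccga
RAD54L: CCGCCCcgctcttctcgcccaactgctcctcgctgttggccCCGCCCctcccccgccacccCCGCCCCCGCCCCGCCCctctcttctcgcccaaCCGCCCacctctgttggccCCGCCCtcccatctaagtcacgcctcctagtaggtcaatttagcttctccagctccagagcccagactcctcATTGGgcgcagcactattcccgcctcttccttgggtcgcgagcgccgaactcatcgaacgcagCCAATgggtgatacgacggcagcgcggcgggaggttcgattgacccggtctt

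The 4 windows of genes that rose shared none of the 5 motifs among all of them. PALB2 held 1 CCAAT box and 1 ETS-type core, BRIP1 3 CCAAT boxes, 1 CHR and 1 GC box, RAD51C 1 E2F-type core, and XRCC2 3 GC boxes. RAD54L held 7 GC boxes, some of them overlapping, and 2 CCAAT boxes. A window was found for 27 of the 30 measured genes. The CCAAT box was in 17 of these 27, beside 35.7% of 27305 promoters of the same length, and the GC box in 22, beside 44.6%. The E2F-type core was in 7, beside 7.93%, the ETS-type core in 7, beside 10.7%, and CHR in 3, beside 15.4%. The repair windows were richer in G and C (median 64.3%, range 32.3% to 78%) than all promoters (median 58.3%). By direction, the CCAAT box was in 6 of 10 genes that rose, in the 3 with a window that fell and in 8 of 14 that did not pass. In the same order, the GC box was in 7, 3 and 12 and the ETS-type core in 4, 1 and 2. The E2F-type core was in 2, 1 and 4, and CHR in 1, 1 and 1. These are matches of letters and do not show binding. Only the 5 strings given were searched, so other forms of the same elements, E2F-type ones included, would be left unmarked.

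End joining was represented by 3 genes. XRCC4, the scaffold of the ligase that seals the ends, read 6.78, 6.74 and 6.70 in NSC and 6.99, 7.08 and 6.94 in shBRG1. It rose 1.20-fold (0.26, SE 0.07, adjusted p = 0.042), the adjusted p nearest the threshold among the 14, and it did not pass without any 1 of the 6 arrays or after cyclic loess (0.0098 to 0.13 over the refits). The Ku subunits that bind the ends were not past the threshold. XRCC5, which encodes Ku80, was at 11.58 ± 0.02 in NSC and 11.59 ± 0.02 in shBRG1 (SD, n = 3), a difference of 0.01 with a 95% interval of -0.14 to 0.15. XRCC6, which encodes Ku70, had a difference of 0.10 (-0.05 to 0.25, adjusted p = 0.33).

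PMS2 had the greatest rise among the 30 genes, and the other mismatch repair genes measured were not past the threshold. PMS2, an endonuclease of mismatch repair, read 7.27, 7.28 and 7.14 in NSC and 7.80, 8.02 and 7.97 in shBRG1. Its mean went from 7.23 ± 0.08 to 7.93 ± 0.12 (SD, n = 3), which is 1.62-fold (0.70, SE 0.08, limma adjusted p = 0.0022). Of the 1455 genes that rose, 139 rose by more. The gene table lists 15 pseudogenes under PMS2 names, so the probe set may also read near-identical copies and the source of the rise within that family is uncertain. CHEK2 has 6 such entries and XRCC6 5. MSH3 and MSH6, which recognise mismatches, each had a difference of 0.10 (95% intervals -0.06 to 0.26 and -0.08 to 0.27).

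In base excision and single-strand break repair, OGG1 fell and the 5 other measured genes were not past the threshold. OGG1, the glycosylase that removes oxidised guanine, read 4.85, 5.04 and 4.95 in NSC and 4.52, 4.58 and 4.42 in shBRG1, a 1.36-fold fall (-0.44, SE 0.08, adjusted p = 0.010). The groups were 0.27 apart, and the gene was below the level of the median gene (5.09), where changes can be understated. PARP1, the main sensor of single-strand breaks, was at 9.20 ± 0.02 in NSC and 9.18 ± 0.03 in shBRG1 (SD, n = 3), a difference of -0.02 with a 95% interval of -0.17 to 0.12. PARP2 (0.08, -0.10 to 0.27) and the uracil glycosylase UNG (0.08, -0.08 to 0.25) had overlapping groups. APEX1, the endonuclease that cuts at abasic sites, was 0.18 higher (0.03 to 0.34, adjusted p = 0.11), and the scaffold XRCC1 0.17 higher (-0.0009 to 0.34, adjusted p = 0.17), each with groups that did not overlap. APEX1 passed with dim genes left out and with trend and robust options, and XRCC1 with the latter.

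**Figure D3:**
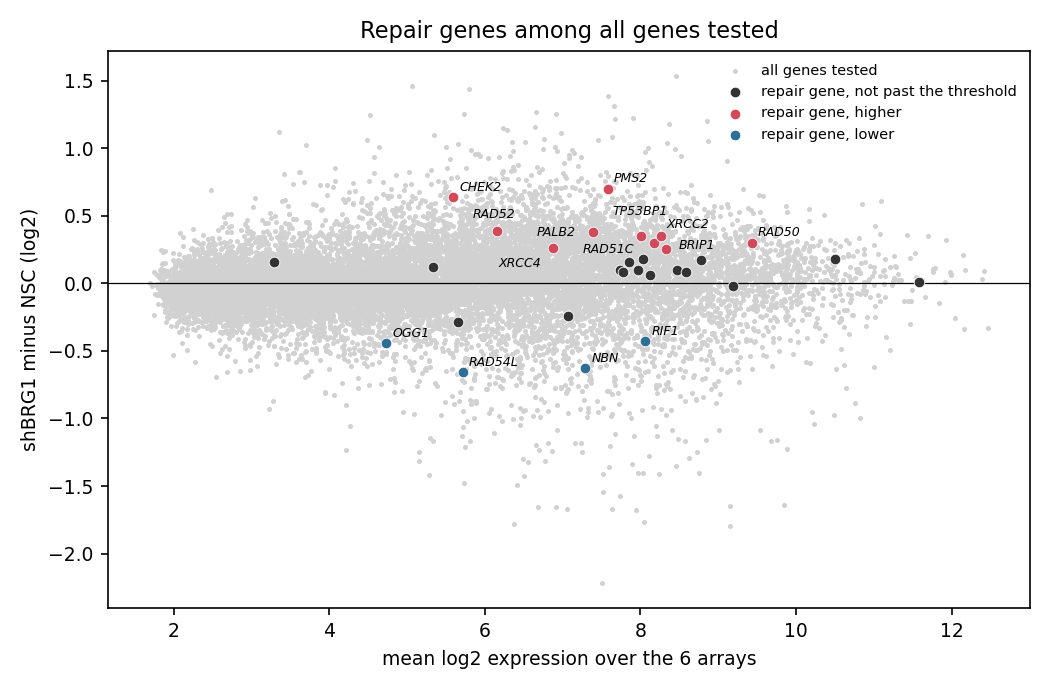
Difference between shBRG1 and NSC (log2) against the mean log2 expression over the 6 arrays for all 14883 genes tested (grey) and the 30 measured repair genes (coloured by call). The repair genes that passed span -0.66 (RAD54L) to 0.70 (PMS2), inside a range of -2.21 to 1.53 over all genes.

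Of the 14 genes, 6 passed in every refit in which they were tested, namely PMS2, PALB2, XRCC2, NBN, RAD54L and OGG1, leaving aside the fit with a replicate block. OGG1 was not tested with dim genes left out. The other 8, CHEK2, TP53BP1, RIF1, RAD50, BRIP1, RAD51C, RAD52 and XRCC4, kept their direction in each refit but did not pass in 4 to 8 of 13. Cyclic loess left 7 genes that rose and the same number of 4 that fell. Testing every probe set, which adjusts over 52299 features, left 3 and 3, and the share of all genes called dropped from 17% to 8.46%. The median difference over all genes was 0.01 as reported, 0.02 after centring and 0.00028 after cyclic loess. Over the 7442 genes kept with dim genes left out it was 0.06, a median over fewer genes rather than a shift in values. Cyclic loess gave 1212 rises and 1329 falls over all genes, beside 1455 and 1070 as reported.

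**Figure D4:**
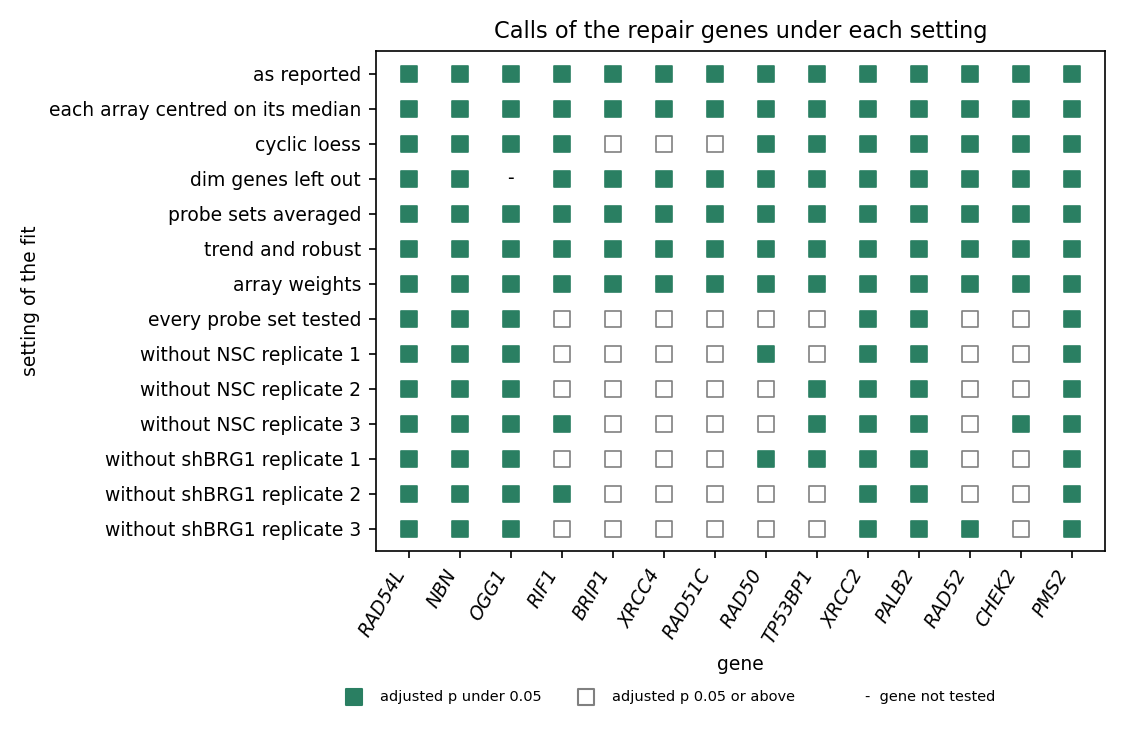
Whether each of the 14 repair genes that passed as reported had an adjusted p under 0.05 (filled squares) under the other settings of the limma fit plotted, which include the omission of 1 array and leave out the replicate block. PMS2, PALB2, XRCC2, NBN and RAD54L are filled under each setting plotted, and OGG1 wherever it was tested.

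A further 113 genes of repair and damage signalling that are not among the 57 were taken as the rest of the pathway, and 67 of them had a named probe set. Of the 67, 12 rose, 9 fell and 46 did not pass (31.3% passed, beside 17% of all genes), with a median difference of 0.05. Of the 63 at or above the level of the median gene, 31.7% passed, near the 29.2% of all genes at that level. USP1, the deubiquitinase that acts on FANCD2 and PCNA, read 9.13, 9.10 and 9.15 in NSC and 7.73, 7.84 and 7.76 in shBRG1. At 2.55-fold lower (-1.35, SE 0.07, adjusted p = 1.5e-04), it had a larger change than any of the 30 genes, and of 1070 genes that fell 23 fell by more. WDR48, its activating partner, had a difference of 0.13 (95% interval -0.03 to 0.28).

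Recombination and crosslink genes in this wider set included the helicase RECQL (-0.58, SE 0.07, adjusted p = 0.0021) and SMC6, of the SMC5/6 complex (-0.57, SE 0.08, adjusted p = 0.0034), which fell. SMC5 had a difference of 0.05 (95% interval -0.12 to 0.22). EME1, the partner of the nuclease MUS81, rose by 0.48 (SE 0.09, adjusted p = 0.011), a call lost on averaging its probe sets (over the refits its adjusted p ran from 0.0020 to 0.085). MUS81 itself had a difference of -0.12 (-0.33 to 0.08). Of the replication fork mediators, CLSPN, which links ATR to CHK1, fell (-0.56, SE 0.11, adjusted p = 0.013), whereas TIPIN rose (0.42, SE 0.07, adjusted p = 0.0071). TIMELESS, listed with these mediators, rose as well (0.30, SE 0.08, adjusted p = 0.039). The other genes named by the same rule were MLH3 (0.50), UIMC1 (0.46), BABAM1 (0.33) and APEX2 (0.33), which rose, and FEN1 (-0.41) and RAD18 (-0.33), which fell. UIMC1 missed the threshold on omission of replicate 1 or 2 of shBRG1 (over the refits its adjusted p ran from 0.0017 to 0.056), and RAD18 on omission of replicate 3 of shBRG1 (6.1e-04 to 0.055). BABAM1 passed with 1 array fewer only without NSC replicate 3 (8.0e-04 to 0.073), and APEX2 only without NSC replicate 1 (0.0033 to 0.065). The count of rises in the wider set was 3 to 6 with 1 array left out, and that of falls 5 to 7. Of all genes, 10.8% to 12.4% passed in those fits, beside 17% with every array.

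**Figure D5:**
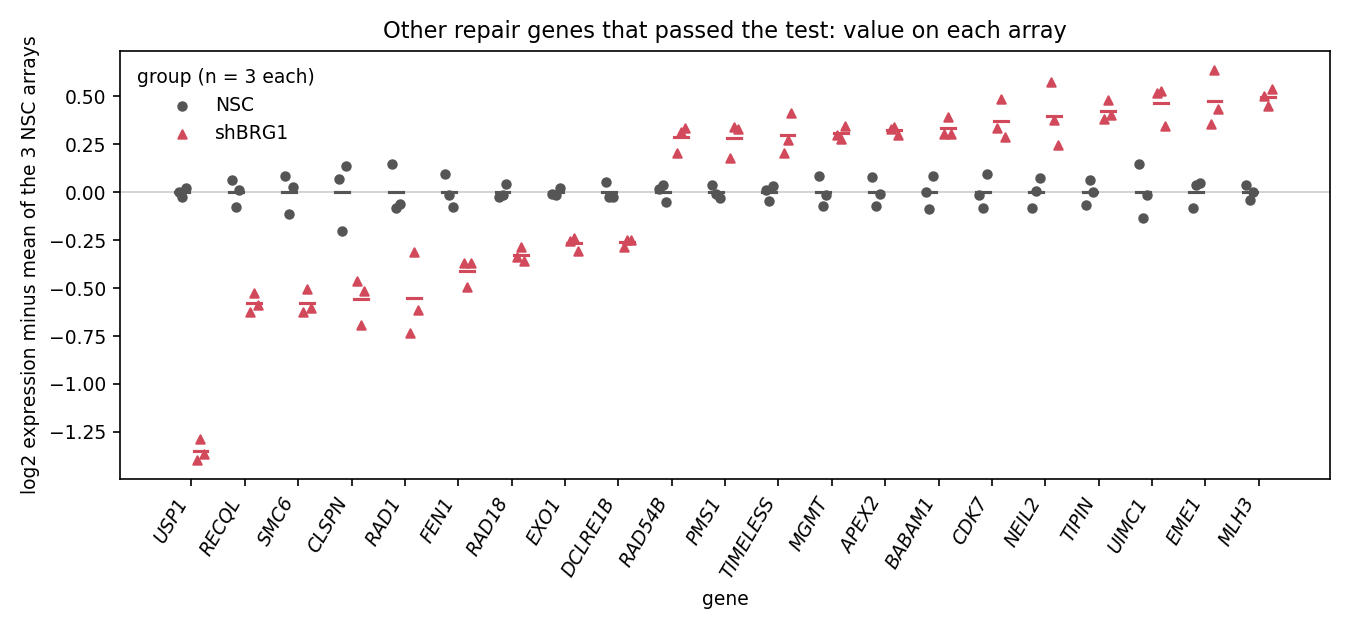
Log2 expression of the 21 other repair genes that passed the test (9 lower, 12 higher in shBRG1), on each of the 3 NSC (circles) and 3 shBRG1 (triangles) arrays, as the difference from the mean of the NSC arrays. Short bars are group means, and USP1 lies apart from the rest at -1.35.

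Several repair genes are known to be transcribed mainly in S and G2 phase, and proliferation genes differed between the groups too. Of 25 measured proliferation genes of 26 listed, the test called 9 lower and 2 higher and left 14 uncalled, with a median difference of -0.09. The share called was 44%, beside 17% of all genes and 29.2% of genes at or above the median level. The share called lower was 36%, beside 7.19% and 11.9%, and the share called higher 8%, beside 9.78% and 17.4%. CCNE1 (-0.78), CCNE2 (-0.74), PCNA (-0.53), MKI67 (-0.50), CCNB1 (-0.49) and MCM6 (-0.47) fell, and MCM5 (0.45) and MCM7 (0.36) rose. The summed level of the list, on the linear scale, was 18862 to 19454 on the NSC arrays and 16991 to 17564 on the shBRG1 arrays. The summed level of the 30 repair genes was 10455 to 10644 in NSC and 11260 to 11543 in shBRG1, higher on each shBRG1 array. A linear sum weighs the brightest genes most. Among the 30 these were XRCC5 (difference 0.01) and APEX1 (0.18), neither past the threshold, and in the proliferation list MKI67. The part of proliferation in the falls of RAD54L, CLSPN and FEN1, or in the rises of BRIP1, XRCC2, EME1 and TIPIN, was not tested.

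Markers of cell identity also moved with the group. Of 9 measured adrenergic markers of 11 listed, 5 fell and 0 rose. The summed level of the 9 was 9704 to 9844 in NSC and 8830 to 8997 in shBRG1. PHOX2A (-0.51), GATA2 (-0.50), CHGA (-0.48), ISL1 (-0.44) and HAND2 (-0.38) fell. GATA3 (0.21), TH (0.11), DBH (0.08) and STMN2 (0.07) had positive differences and did not pass. The share that fell was 55.6%, beside 7.19% of all genes and 11.9% of genes at or above the median level. The share that passed was 55.6%, beside 17% of all genes and 29.2% of genes at or above the median level. Of 8 measured mesenchymal markers of 10 listed, 1 rose and 2 fell, so 37.5% passed beside the same 2 background shares. FN1 rose 2.71-fold (1.44, SE 0.11, limma adjusted p = 4.1e-04), and SNAI2 (from 9.80 to 9.33) and CD44 (from 4.87 to 4.59) fell. The list's summed level, in which SNAI2 is the brightest gene, was 1557 to 1701 in NSC and 1329 to 1470 in shBRG1, and PRRX1 and YAP1 lay near or below the array medians in both groups. The 4 measured Schwann and glial markers of 7 listed summed to 95 to 98 and 84 to 87, and none passed the test. Their part in the differences of the repair genes was not tested.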

How the data were processed

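Total RNA (200 ng per sample) of 3 NSC and 3 shBRG1 samples went onto Affymetrix arrays, 1 per sample in a single colour, per the labels' protocols. The deposited values are log2 expression per probe set, made by the authors with RMA, oligo 1.27, limma 3.19 and R 3.1.0, per the submitters' processing notes. RMA forces arrays to share 1 distribution, which would hide a change common to most genes. That the scale is log2 was read from the range, 1.19 to 13.8. For the probe design no genome build is given in the sources used, and scanner files, detection calls and scan days were not used here.

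Of 52299 probe sets, 15828 carried 1 gene symbol in a platform annotation, 0 several and 36471 none, and all symbols were the same in the GRCh38.p14 gene table through gene identifiers. The brightest probe set per gene was kept, which left 14883 genes. All 6 columns were mapped. Each gene was fitted with the lmFit and eBayes functions of limma 3.58.1 (R 4.3.3, two-sided, no covariates), shBRG1 minus NSC, with Benjamini-Hochberg adjustment over the 14883 genes and a threshold of 0.05. Intervals are moderated 95% intervals. An exact permutation of 3 against 3 arrays cannot go below 0.1, and the number of arrays limits the precision. The fit was tested on simulated data.

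The rule for named genes was every member that passed, the 2 members with the smallest p in each pathway, the brightest and the dimmest member, and, of the wider repair set and the proliferation list, up to 6 that passed with the smallest p in each direction. The remaining measured members, the markers, WDR48, SMC5 and MUS81 as partners, and TIMELESS are named beyond this rule, after their values were seen. The members and lists were chosen with earlier results of these data known. Alternatives were centring, cyclic loess, leaving out dim genes, averaging probe sets, trend and robust options, array weights, a replicate block, leaving out each array, testing every probe set, and a threshold of 0.01. Python 3.11.15 with matplotlib 3.10.9 drew the figures.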

Additional observations from a re-analysis of the deposited data

How the results depend on the processing

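The numbers of genes that passed changed with the threshold, the features tested, the arrays kept and the scaling. Cyclic loess left 7 of the 10 rises among the repair genes. With dim genes left out, 12 of the 28 repair genes tested rose and 3 fell. That is 53.6% passing, beside 43% of the 7442 genes kept. With trend and robust options 13 of the 30 rose and 4 fell, or 56.7% passing beside 22.2% of all genes. At an adjusted p of 0.01, 2 of the 30 repair genes rose and 2 fell. Of the wider repair set, 2 rose and 3 fell at that threshold. The share of all genes passing at 0.01 was not counted, so these counts have no background beside them. With every probe set tested, 3 repair genes and 3 of the wider set rose and 5 of the wider set fell. Of all genes, 8.46% passed in that setting, beside 17% as reported. With 1 array left out, 3 to 5 repair genes rose and 3 to 4 fell, and 3 to 6 of the wider set rose and 5 to 7 fell. Between 10.8% and 12.4% of all genes passed in these fits. The falls in the wider set, 9 as reported, numbered 14 after cyclic loess, 15 with dim genes left out and 15 with trend and robust options, and the cause was not tested. Falls over all genes, 1070 as reported, numbered 1329, 1224 (of the 7442 kept) and 1322 in these 3 settings. CHEK1 and XRCC5, which did not pass, changed sign after cyclic loess (-0.01 and -0.04), and XRCC5 also without NSC replicate 2 (-0.00017) or shBRG1 replicate 1 (-0.0011), within -0.0011 to 0.02 over the fits with 1 array left out.

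The replicate numbers were not taken as pairs. Deviations of same-numbered arrays from their group means correlated at -0.04, -0.14 and -0.03, and 0 of 6 arrays correlated best with their own number. With the replicate block, 4 repair genes rose (PMS2, PALB2, TP53BP1 and CHEK2) and 3 fell, 4 of the wider set rose and 6 fell, and XRCC2 had an adjusted p of 0.052. Of all genes, 10.8% passed with the block, beside 17% as reported.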
